A study of Mus musculus with 6 samples.

Results

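The Cyp4a genes encode cytochrome P450 enzymes of the endoplasmic reticulum that hydroxylate the terminal (omega) carbon of fatty acids such as lauric acid and arachidonic acid. The product can be oxidised further to a dicarboxylic acid, which is activated and shortened in peroxisomes. In mouse liver, Cyp4a10 and Cyp4a14 are classical targets of the fatty acid receptor PPARα, whereas Cyp4a12a and Cyp4a12b are known as male-biased genes. The 6 genes described here, Cyp4a10, Cyp4a14, Cyp4a31, Cyp4a32, Cyp4a12a and Cyp4a12b, were taken by their symbols from 18444 listed genes, and each was found in every library.

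Liver RNA of male mice, labelled C57BL/6 and named C57BL/6J in the methods, was sequenced on a BGISEQ-500 instrument in 6 libraries of 2 models, with 1 library per condition. In the diet model, mice received a control diet (SD), a high-fat diet (HFD) for 16 weeks, or HFD with JT003, a peptide agonist of the adiponectin receptors AdipoR1 and AdipoR2, for 4 weeks. In the CCl4 model, mice received corn oil, 20% CCl4 in corn oil at 5 ml/kg every 3 days for 6 weeks, or CCl4 with JT003 for 3 weeks. The age given is 6 to 8 weeks, which is shorter than the diet and so is not the age at which the diet livers were taken. JT003 was injected daily into the peritoneum at 500 μg/kg, groups held 6 mice, and mice were fasted for 8 h before the livers were taken. The label of the SD library names a chow diet, whereas the methods name a purified control diet. The HFD library is labelled NASH, whereas the methods add a methionine- and choline-deficient diet for NASH and the title names only HFD. Whether a library holds the RNA of 1 mouse or of several, and the time of day, are not stated.

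The estimated reads of a library (expected counts, rounded) summed to 19374236 to 20184557. Because no condition was replicated, no p-value is given, and each ratio compares 2 libraries rather than 2 conditions. A ratio is called higher or lower when it is past 2-fold, and its 95% Clopper-Pearson interval covers counting error only. Hepatocyte markers were abundant in every library, their summed FPKM (reads scaled to transcript length and library size) being 46165 to 58923 over 8 genes, and none was at 0. Of 6 kidney tubule markers, 2 were listed in any library and their sum was at most 0.07 FPKM. In RNA of whole liver, fewer cells of a type and less RNA per cell cannot be told apart.

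The 6 genes lie together on chromosome 4 in the order Cyp4a12a, Cyp4a12b, Cyp4a14, Cyp4a10, Cyp4a31 and Cyp4a32, with other Cyp4a genes and pseudogenes between and before them (order from RefSeq, GRCm38.p6). They are close copies, which bears on how their reads can be told apart. The coding sequences of Cyp4a10, Cyp4a31 and Cyp4a32 were 96.0% to 97.2% identical to each other, and those of Cyp4a12a and Cyp4a12b were 98.5% identical. Cyp4a14 was 74.8% to 75.8% identical to any other member. The stretch of 60 coding bases around the cysteine that binds the heme iron is shown first, because it is the most conserved feature of a P450 and holds no base that separates some of the members. The sequences are GENCODE M21 transcripts on GRCm38, 5′ to 3′, and capitals mark bases that differ from Cyp4a10.
Cyp4a10: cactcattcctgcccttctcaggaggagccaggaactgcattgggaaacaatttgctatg
Cyp4a31: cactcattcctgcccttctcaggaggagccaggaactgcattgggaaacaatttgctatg
Cyp4a32: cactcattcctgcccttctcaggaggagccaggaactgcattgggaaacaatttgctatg
Cyp4a12a: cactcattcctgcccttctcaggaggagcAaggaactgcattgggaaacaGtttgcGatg
Cyp4a12b: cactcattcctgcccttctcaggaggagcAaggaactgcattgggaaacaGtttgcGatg
Cyp4a14: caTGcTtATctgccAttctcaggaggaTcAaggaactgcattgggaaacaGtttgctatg

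The stretch was the same in Cyp4a10, Cyp4a31 and Cyp4a32 and the same in the Cyp4a12 pair. It differed from Cyp4a10 at 3 of 60 bases in the Cyp4a12 pair and at 9 of 60 in Cyp4a14. The 60 coding bases with the most differences among Cyp4a10, Cyp4a31 and Cyp4a32 (coding positions 200 to 259) are shown to give the other extreme, with capitals again for differences from Cyp4a10.
Cyp4a10: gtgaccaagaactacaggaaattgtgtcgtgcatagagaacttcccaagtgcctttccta
Cyp4a31: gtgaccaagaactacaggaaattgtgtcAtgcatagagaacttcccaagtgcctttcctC
Cyp4a32: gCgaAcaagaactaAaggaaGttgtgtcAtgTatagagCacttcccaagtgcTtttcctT

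Even there, Cyp4a31 differed from Cyp4a10 at 2 bases and Cyp4a32 at 9. Over the whole transcripts, 30.5% of the windows of 50 bases of Cyp4a10 also occurred in another member, as did 20.1% of Cyp4a31 and 46.8% of Cyp4a32, whose transcript holds coding bases only. For Cyp4a12a the share was 48.9% and for Cyp4a12b 49.4%, all of it with each other. No window of 50 bases of Cyp4a14 occurred in another member. RSEM, the program named in the submitters' processing notes, splits such shared reads between genes. The values of Cyp4a14 are therefore free of sharing within the family at this length. Those of Cyp4a10, Cyp4a31, Cyp4a32 and the Cyp4a12 pair are less certain. The read length is not given in the sources used here.

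In the control livers Cyp4a14 and Cyp4a10 made up nearly all Cyp4a RNA. Together the 6 genes took 1.54% of the reads in SD and 1.01% in corn oil. With HFD the family sum was 0.131%, and with JT003 added it was 0.341%. CCl4 gave 0.420% and CCl4 plus JT003 gave 0.624%. Thus both injured livers were below their controls, and both JT003 livers lay between injured and control liver. Cyp4a14 was the gene with the 20th highest FPKM of all genes in SD and the 456th in HFD, and Cyp4a10 was the 42nd and the 276th.

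Cyp4a14 was listed at 4069 FPKM in SD, against 149 with HFD alone and 613 with JT003 added, and at 2199 in corn oil, against 821 with CCl4 alone and 1373 with JT003 added. Cyp4a10 was listed at 1992 FPKM in SD, against 231 with HFD alone and 723 with JT003 added, and at 1741 in corn oil, against 848 with CCl4 alone and 1141 with JT003 added. For both genes HFD was the lowest library and SD the highest, and the range spanned 27.3-fold for Cyp4a14 and 8.62-fold for Cyp4a10. Cyp4a31 was listed at 53.2 FPKM in SD, against 5.29 with HFD alone and 17.2 with JT003 added, and at 40.4 in corn oil, against 94.3 with CCl4 alone and 67.5 with JT003 added. It was the only member whose highest library was CCl4. Cyp4a32 was listed at 89.6 FPKM in SD, against 21.9 with HFD alone and 28.8 with JT003 added, and at 48.5 in corn oil, against 18.4 with CCl4 alone and 18.4 with JT003 added. Its range was the narrowest of the 6, at 4.87-fold.

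Cyp4a12a, a main arachidonic acid omega-hydroxylase of male mice, was listed at 179 FPKM in SD, against 129 with HFD alone and 64.5 with JT003 added, and at 191 in corn oil, against 21.3 with CCl4 alone and 45.4 with JT003 added. Its neighbour Cyp4a12b was listed at 96.1 FPKM in SD, against 32.6 with HFD alone and 36.4 with JT003 added, and at 85.4 in corn oil, against 10.6 with CCl4 alone and 24.5 with JT003 added. Both were lowest in CCl4, not in HFD. Cyp4a12a exceeded Cyp4a12b in FPKM in every library, by 1.77-fold to 2.23-fold in 5 libraries and by 3.94-fold in HFD.

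**Figure D1:**
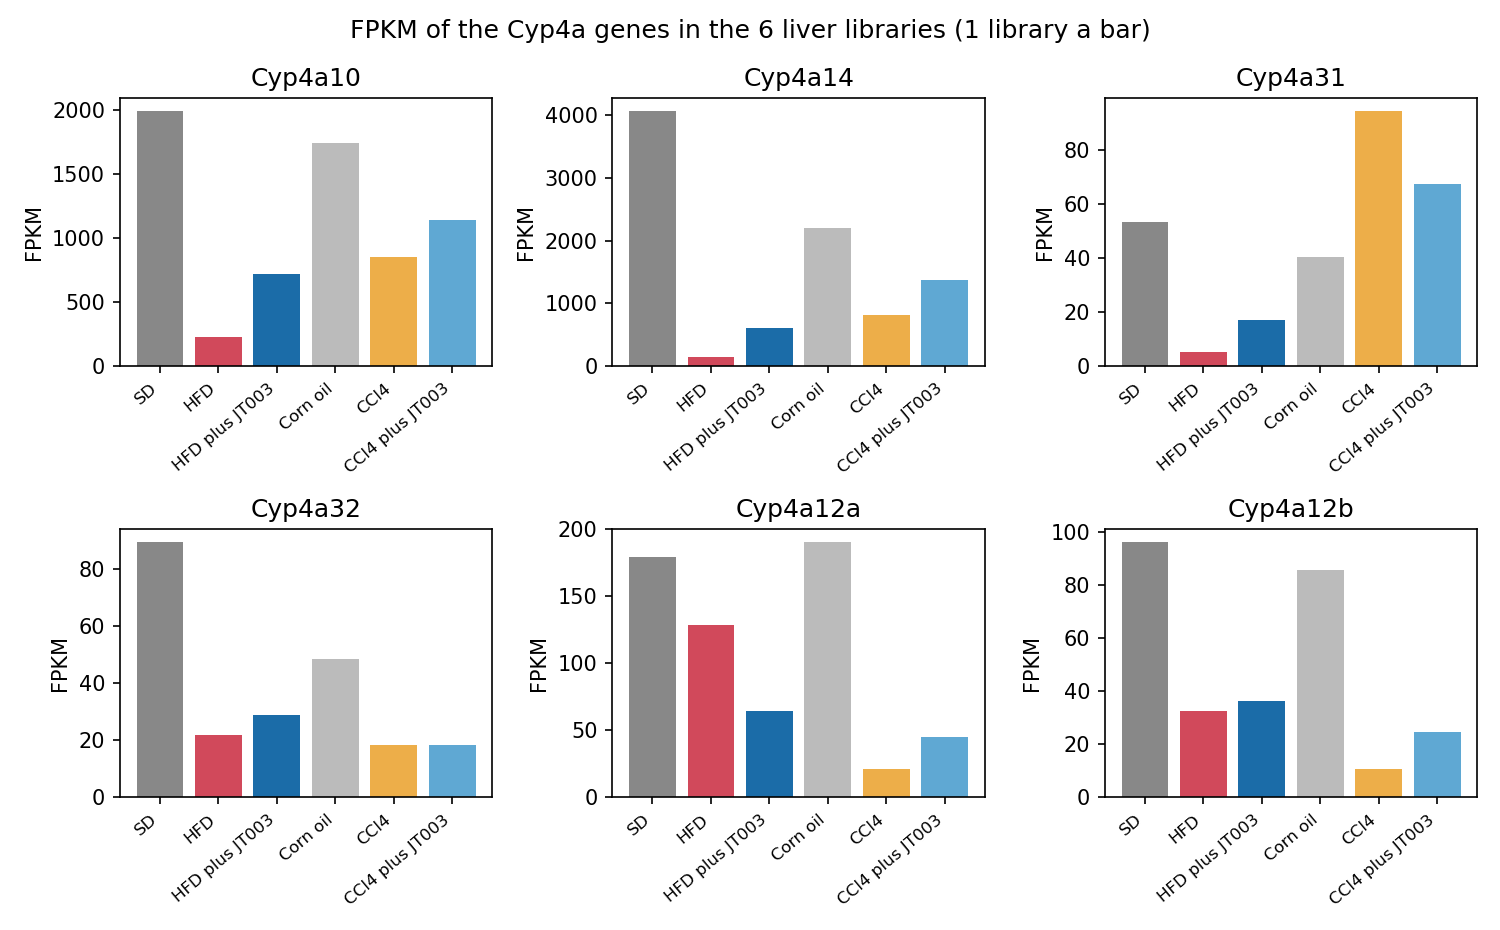
Deposited FPKM of each Cyp4a gene (vertical axis, linear, from 0, with a different scale in each panel) in the 6 libraries (horizontal axis, 1 library a bar, no error bar because there are no replicates). Cyp4a10 and Cyp4a14 are lowest in HFD, Cyp4a12a and Cyp4a12b are lowest in CCl4, Cyp4a32 is at 18.4 in both libraries with CCl4, and Cyp4a31 is highest in CCl4.

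The balance within the family also differed between libraries. By summed FPKM of the 6 genes, Cyp4a14 held 62.8% in SD and 26.2% in HFD, and its ratio to Cyp4a10 was 2.04 in SD and 0.644 in HFD. The Cyp4a12 pair held 4.25% of the family in SD and 28.4% in HFD. With JT003 the pair held 6.81% in HFD mice. The pair held 6.41% in corn oil, 1.76% with CCl4 alone and 2.62% with JT003 added. Cyp4a31, at 0.94% of the family in corn oil, held 5.20% with CCl4 alone and 2.53% with JT003 added.

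**Figure D2:**
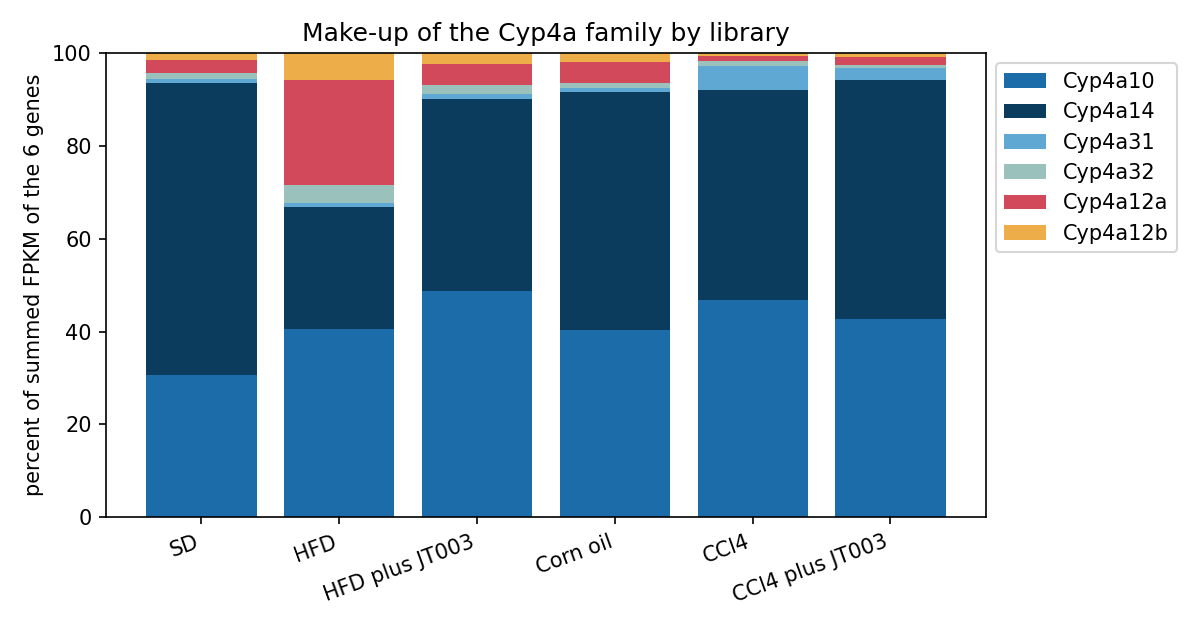
Share of each Cyp4a gene in the summed FPKM of the 6 genes (vertical axis, percent) in each library (horizontal axis, 1 stacked bar a library). The pair Cyp4a12a and Cyp4a12b takes 28.4% in HFD and 1.76% to 6.81% in the other 5 libraries.

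The first comparison sets the HFD library against the SD library. Of the 6 members, 5 were lower in HFD than in SD and none was higher, against 4.15% of all 13335 genes with at least 10 counts that were lower. Cyp4a14 had 206802 counts in SD and 7401 in HFD, a log2 ratio of −4.90 (95% interval −4.93 to −4.86), or 29.8-fold lower. Cyp4a10 had a log2 ratio of −3.23 (−3.26 to −3.20), Cyp4a31 of −3.45 (−3.65 to −3.28), Cyp4a32 of −2.15 (−2.27 to −2.05) and Cyp4a12b of −1.68 (−1.77 to −1.60). Cyp4a12a stayed within 2-fold, at −0.60 (−0.65 to −0.55). The ratio of Cyp4a14 was lower than that of Cyp4a10 by a log2 difference of −1.66 (−1.71 to −1.62), while Cyp4a31 and Cyp4a10 differed by −0.23 (−0.42 to −0.04). Within the close pair, the ratio of Cyp4a12a exceeded that of Cyp4a12b by 1.08 (0.98 to 1.18). This interval leaves out how reads shared by the pair were split, and the part of that split was not tested.

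The second comparison sets the HFD plus JT003 library against the HFD library. Here 3 members were higher with JT003 and 1 was lower, against 2.35% and 2.36% of all 13453 genes. Cyp4a14 had a log2 ratio of 2.03 (1.99 to 2.06), Cyp4a31 of 1.69 (1.49 to 1.90) and Cyp4a10 of 1.63 (1.60 to 1.66), which is 4.07-fold, 3.23-fold and 3.10-fold higher. The ratios of Cyp4a31 and Cyp4a10 were not separated by counting error, with a difference of 0.07 (−0.14 to 0.28). Cyp4a32 had a log2 ratio of 0.38 (0.25 to 0.51) and Cyp4a12b of 0.14 (0.04 to 0.24). Cyp4a12a went the other way, from 6184 counts in HFD to 3118 with JT003, a log2 ratio of −1.01 (−1.07 to −0.95). This call lies at the threshold. It was just inside 2-fold when library sizes were total counts and in FPKM, and it was −0.67 under scaling to Actb.

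With JT003 the HFD liver stayed below SD for these genes. All 6 members were lower in HFD plus JT003 than in SD, against 4.56% of all 13402 genes, with log2 ratios of −2.87 for Cyp4a14 and −1.77 to −1.54 for the other 5. The 2 libraries with HFD are each set against the same SD library, and HFD plus JT003 is set against the same HFD library, so the ratios are not independent. In HFD plus JT003 the family sum was 4.98-fold lower than in SD, and in HFD it was 12.8-fold lower.

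**Figure D3:**
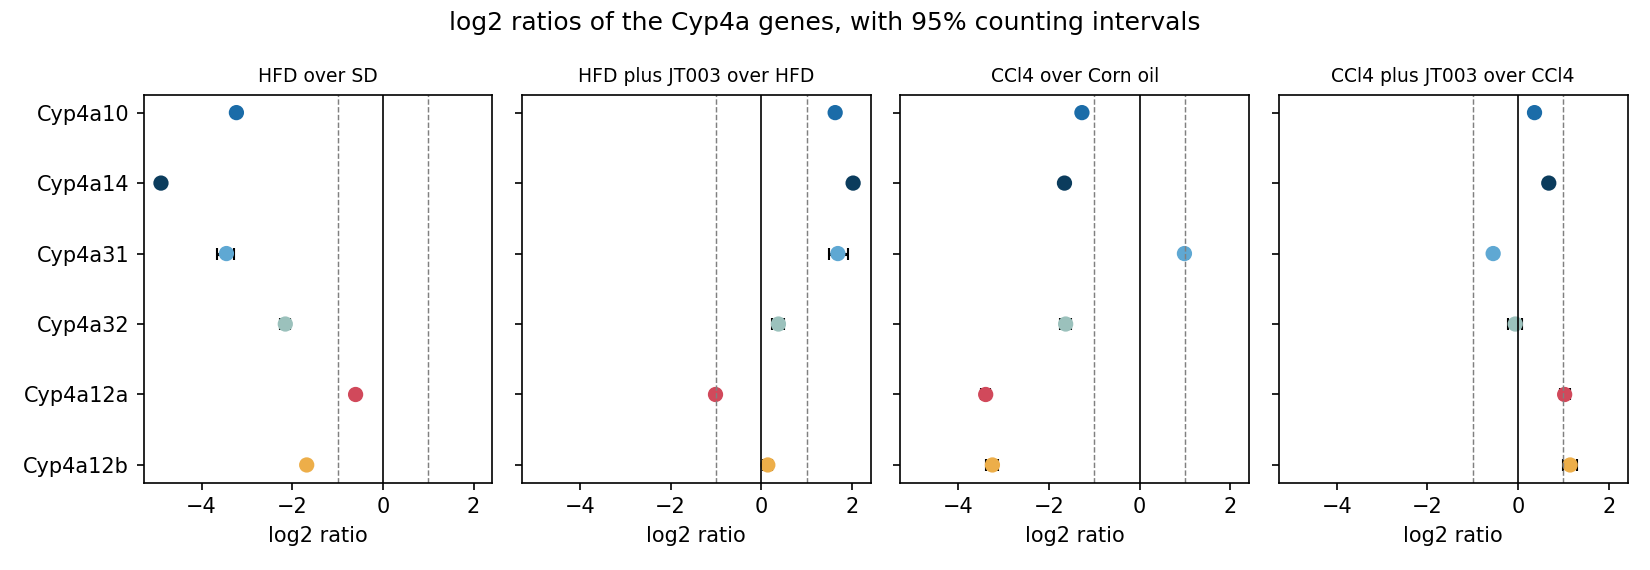
log2 ratio of each Cyp4a gene (horizontal axis) in 4 comparisons of 2 libraries (1 panel each), with 95% Clopper-Pearson intervals for counting error (bars, often smaller than the point). Dashed lines mark 2-fold. Cyp4a14 is lowest of the members in HFD over SD and the Cyp4a12 pair in CCl4 over corn oil, where Cyp4a31 alone lies above 0.

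The third comparison sets the CCl4 library against the corn oil library. CCl4 is a hepatotoxin that is itself activated by P450 enzymes. Again 5 of 6 members were lower than in corn oil, against 4.91% of all 13602 genes, but the members ranked differently than in HFD. Cyp4a12a had 9038 counts in corn oil and 1045 in CCl4, a log2 ratio of −3.40 (−3.49 to −3.31), or 10.5-fold lower. Cyp4a12b followed at −3.25 (−3.39 to −3.12), and the pair did not differ beyond counting error (difference −0.15, −0.31 to 0.02). Cyp4a14 had −1.66 (−1.68 to −1.64), Cyp4a32 had −1.63 (−1.76 to −1.51) and Cyp4a10 had −1.27 (−1.29 to −1.26).

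Cyp4a31 lay on the other side, with 1952 counts in corn oil and 4727 in CCl4, a log2 ratio of 0.99 (0.91 to 1.06). That is just inside 2-fold, where 8.76% of all genes were higher, and it was past 2-fold under scaling by total counts, at 1.22. The ratio of Cyp4a31 exceeded that of Cyp4a10 by 2.26 (2.18 to 2.34) and that of Cyp4a32 by 2.62 (2.48 to 2.77). In FPKM, Cyp4a10 exceeded Cyp4a31 by 37.4-fold to 43.7-fold in SD, both HFD libraries and corn oil, by 8.99-fold in CCl4 and by 16.9-fold in CCl4 plus JT003. The part in this of how shared reads were split was not tested.

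The fourth comparison sets the CCl4 plus JT003 library against the CCl4 library. Cyp4a12a, at a log2 ratio of 1.03 (0.92 to 1.14), and Cyp4a12b, at 1.15 (1.00 to 1.30), were higher, against 4.64% of all 13785 genes. Cyp4a14 had 0.68 (0.66 to 0.69), Cyp4a10 had 0.36 (0.34 to 0.38), Cyp4a31 had −0.55 (−0.62 to −0.49) and Cyp4a32 had −0.06 (−0.22 to 0.09), all within 2-fold. Against corn oil, CCl4 plus JT003 was lower for 3 members, against 3.37% of all 13731 genes: Cyp4a12a at −2.37, Cyp4a12b at −2.10 and Cyp4a32 at −1.70. Cyp4a14, at −0.98, and Cyp4a10, at −0.91, were just inside 2-fold. With DESeq2 size factors, or with TMM factors over all 6 libraries, Cyp4a14 was at −1.002 and −1.02, which makes 4 members lower, and by total counts it was at −0.68.

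One deposited table holds CCl4 counts that sum to 2.97 times the CCl4 library and that lie below it for 24 genes, by 0.99 at most, so they appear to be pooled over several CCl4 libraries. Taking the CCl4 library away leaves the remaining CCl4 counts, a comparison that was chosen after the data were seen. Which libraries these counts hold, and whether they come from other mice, is not stated. Between the CCl4 library and the remaining counts, Cyp4a10 differed by a log2 ratio of 0.77, Cyp4a14 by 0.53, Cyp4a31 by 0.40, Cyp4a32 by 0.09, Cyp4a12a by −0.18 and Cyp4a12b by −0.22. Over all 14545 genes, 5.54% were past 2-fold between the 2. For Cyp4a10 this exceeds its JT003 ratio of 0.36 in this model, and for Cyp4a14 it is near its JT003 ratio of 0.68.

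Set against corn oil, the remaining counts gave the members the same directions as the CCl4 library: −3.22 for Cyp4a12a, −3.03 for Cyp4a12b, −2.19 for Cyp4a14, −2.05 for Cyp4a10, −1.73 for Cyp4a32 and 0.59 for Cyp4a31. For JT003 the calls changed. Over the remaining counts, CCl4 plus JT003 was past 2-fold for Cyp4a14, at 1.21, and Cyp4a10, at 1.13. It was within 2-fold for Cyp4a12b, at 0.93, and Cyp4a12a, at 0.85. Cyp4a31 had −0.16 and Cyp4a32 had 0.03. Which of the members passed 2-fold with JT003 in CCl4 mice thus depended on which CCl4 counts were used.

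**Figure D4:**
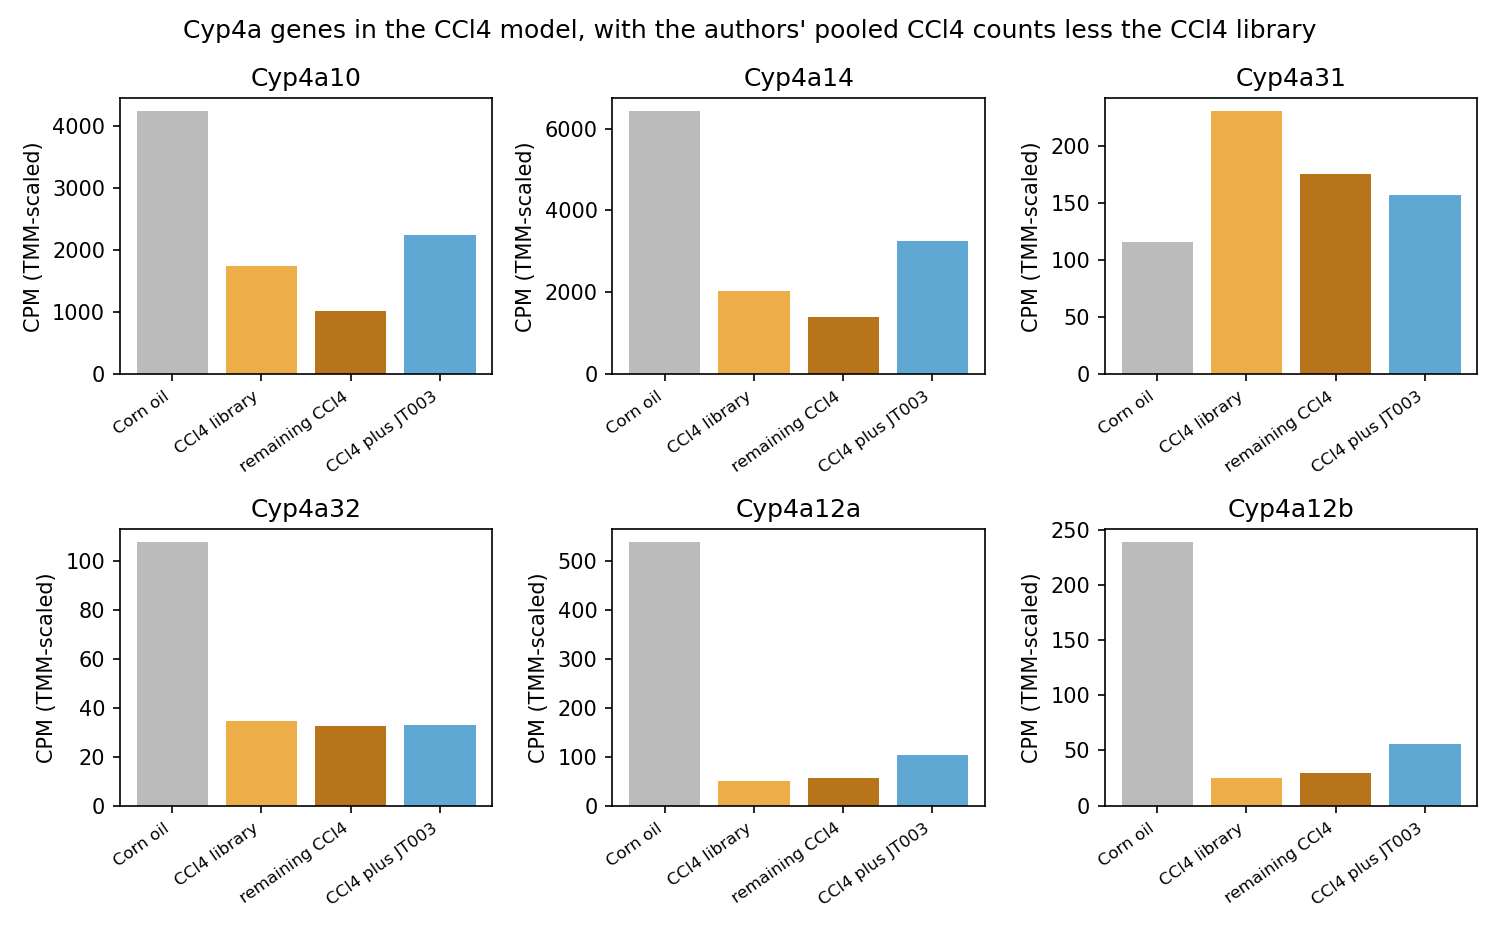
TMM-scaled CPM, counts relative to library size, of each Cyp4a gene (vertical axis, linear, from 0, with a different scale in each panel) in corn oil, the CCl4 library, the remaining CCl4 counts and CCl4 plus JT003. The Cyp4a12 pair is low in both CCl4 bars, while Cyp4a10 is at 1755 in the CCl4 library and 1027 in the remaining counts.

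The controls of the 2 models were also set against each other. Corn oil over SD gave no member past 2-fold, against 5.12% of all 13302 genes that were higher and 5.93% that were lower. The log2 ratios ran from −0.79 for Cyp4a14 and Cyp4a32 to 0.19 for Cyp4a12a. Some other genes of the same pathways were lower in corn oil than in SD. Of 25 PPARα targets besides the members, 8 were lower and none was higher, with a median of −0.56, among them Pdk4 at −2.44 and Fgf21 at −1.53. Of the 19 genes for steps after omega-hydroxylation, 3 were lower and none was higher, with a median of −0.38, and Ehhadh had −1.57. The same SD library is the control in the ratios of HFD over SD. Corn oil over SD compares 2 experiments as well as 2 controls, and those cannot be told apart.

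Genes for the steps after omega-hydroxylation, from alcohol and aldehyde dehydrogenases to peroxisomal β-oxidation, formed a list of 19. Of these, 9 were lower and 1 was higher in HFD than in SD, beside 553 and 792 of all 13335 genes. Their median log2 ratio was −0.68 beside 0.00 over all genes. Ehhadh, the peroxisomal bifunctional enzyme, went from 2632 FPKM in SD to 113 in HFD, a log2 ratio of −4.67, close to that of Cyp4a14. Aldh3a2, the fatty aldehyde dehydrogenase, had −1.21. With JT003 on HFD, Ehhadh was the 1 of the 19 that was higher, at 1.14. In CCl4 over corn oil none of the 19 was lower and 1, the transporter Abcd2, was higher, at 2.54. The shares of all genes were 4.91% and 8.76%.

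Por, the reductase that passes electrons to all microsomal P450 enzymes, was the only 1 of 4 electron donor genes past 2-fold in the diet model. It had 222 FPKM in SD, 87.3 with HFD alone and 203 with JT003 added, with log2 ratios of −1.47 in HFD and 1.20 with JT003. In the CCl4 model Por had 297 FPKM in corn oil, 201 with CCl4 alone and 333 with JT003 added, and its ratios were −0.80 and 0.67. Of the 9 measured genes of the other Cyp4 subfamilies, 2 were lower in HFD, Cyp4f17 at −1.32 and Cyp4f39 at −2.46. In CCl4, 2 were higher, Cyp4f16 at 1.06 and Cyp4f18 at 2.01. The ratios of Cyp4f39 and Cyp4f18 rest on few counts. Cyp4f39 had 19 in SD and 2 in HFD, and Cyp4f18 had 7 in corn oil and 41 in CCl4. The shares of all genes were 4.15% lower in HFD and 8.76% higher in CCl4.

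Of 25 other PPARα targets, 12 were lower and none was higher in HFD than in SD, where 4.15% of all genes were lower. Their median was −0.96, beside −0.56 for corn oil over the same SD library. Pdk4, which restrains pyruvate oxidation, had −4.18, the thioesterase Acot1 had −3.35, and the hormone gene Fgf21 had −3.30. With JT003 on HFD, 5 of the 25 were higher and 1 was lower, beside 2.35% and 2.36% of all genes. Their median was 0.27 (0.60 under scaling to Actb, where the median of all genes moved to 0.33). Acot3 had 2.78 and Fgf21 had 1.44, while Cidec, a lipid droplet protein, had −1.80. In CCl4 over corn oil 8.76% of all genes were higher and 4.91% lower. Of the 25 targets, 2 were higher there, 3 were lower and the median was −0.24. That balance turned with the scaling, to 4 higher and 2 lower by total counts (median −0.01) and to 1 higher and 5 lower by Actb (median −0.55). In CCl4 plus JT003 over CCl4 1 was higher, 3 were lower and the median was −0.10, beside 639 higher and 585 lower of all 13785 genes. Ppara itself was within 2-fold in all of these comparisons, with log2 ratios of −0.23 in HFD, 0.28 with JT003 on HFD, −0.29 in CCl4 and 0.06 with JT003 in CCl4 mice.

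In CCl4 over corn oil 4.91% of all genes were lower and 8.76% higher. Of 20 other male-biased liver genes, 13 were lower and none was higher in CCl4 than in corn oil, with a median of −1.88. Among them Cyp7b1, an oxysterol hydroxylase, had −3.83, the steroid dehydrogenase Hsd3b5 had −5.02, and the major urinary protein gene Mup20 had −1.85. In HFD over SD 3 of the 20 were lower, 3 were higher and the median was 0.12, beside 553 lower and 792 higher of all 13335 genes. With JT003 in CCl4 mice, where the Cyp4a12 pair was higher, none of the 19 measured male-biased genes was higher and 1 was lower. Their median was −0.09, and 639 of all 13785 genes were higher and 585 lower. Under scaling to Actb the last medians turned positive, at 0.28 for the male-biased genes and 0.27 for the PPARα targets, as the median of all genes moved to 0.36. Many Mup genes are close copies of each other, so values of Mup genes may be uncertain. How far this holds for the Mup genes of the list was not tested. Of 11 measured female-biased genes, 5 were higher and 5 were lower in CCl4.

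**Figure D5:**
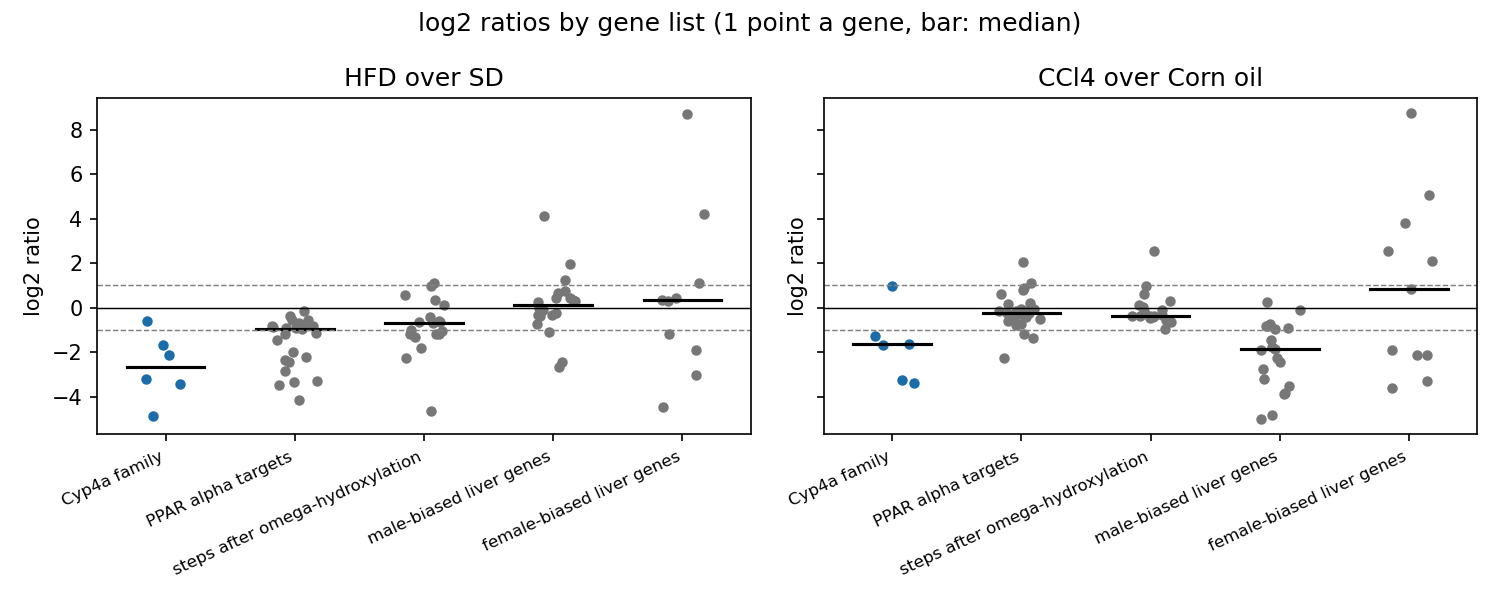
log2 ratios (vertical axis) of HFD over SD and of CCl4 over corn oil for the Cyp4a genes and 4 gene lists (1 point a gene, black bar the median, dashed lines 2-fold). The PPARα target median is −0.96 in HFD and −0.24 in CCl4, and the male-biased median is 0.12 in HFD and −1.88 in CCl4.

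Of 17 regulator genes, Ppara was given above, and 2 others were picked after their values were seen. Bcl6, a repressor that acts in male liver, had 1.39 FPKM in SD, 19.3 with HFD alone and 8.78 with JT003 added. It had 3.85 FPKM in corn oil, 18.6 with CCl4 alone and 2.55 with JT003 added. The nuclear receptor gene Nr1i3 was higher with JT003 on HFD, at 1.31, and in CCl4 mice it had 0.87. In all, 3 of 16 measured regulators were higher and none lower in HFD, and 1 was higher and 1 lower in CCl4. For all genes, 792 of 13335 were higher and 553 lower in HFD, and 8.76% were higher and 4.91% lower in CCl4. Their part in the levels of the Cyp4a genes was not tested.

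The genes with profiles nearest to Cyp4a14 and Cyp4a12a differed. Likeness was the root mean square difference of log2(FPKM + 1), centred on each gene's mean, over the 6 libraries, among 10273 genes with at least 100 counts in their highest library. Nearest to Cyp4a14 were Ehhadh at 0.50, Acot1 at 0.58, Tff3 at 0.60, Cdc42ep5 at 0.68 and Cyp17a1 at 0.69, and Cyp4a10 lay at 0.52. Nearest to Cyp4a12a were Slc22a3 at 0.51, Mup10 at 0.52, Mup20 at 0.54, Clstn3 at 0.54 and Tmem189 at 0.59, and Cyp4a12b lay at 0.39. Cyp4a12a and Cyp4a14 were 1.67 apart and Cyp4a12a and Cyp4a31 2.07 apart. Cyp4a31 lay 1.01 from Cyp4a14. Cyp4a32 lay nearer to Cyp4a12a, at 0.73, than to Cyp4a14, at 1.12.

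Markers of other cells also differed between libraries. The summed FPKM of 5 bile duct markers was 16.1 to 26.7 in the 4 libraries without CCl4 and 104 to 106 in both with CCl4, mostly from Spp1, at 90.5 FPKM in CCl4. For 6 macrophage markers it was 28.7 in corn oil and 88.5 to 156 in the other 5 libraries, and no marker of either list was at 0. Of all genes, 4.91% were lower and 8.76% higher in CCl4 over corn oil. Of 5 endothelial markers, all had log2 ratios below 0 in that comparison, with a median of −0.82 and 1 past 2-fold. Their summed FPKM was 23.0 in CCl4 and 35.1 in corn oil. Of 6 stellate cell and myofibroblast markers, 3 were higher in HFD than in SD, beside 792 of all 13335 genes. Col1a1 had 2.23 and the median of the 6 was 0.84. In CCl4 over corn oil 2 of the 6 were higher, with Col1a1 at 3.13. There 3 lay above 0 and 3 below, among them Acta2 at −0.89, and the median was 0.11. Among adipocyte markers, Cfd was listed at 25.4 FPKM in HFD, 9.21 in HFD plus JT003 and 0.11 in SD, and Adipoq at 0 in all 3. In corn oil Cfd was at 9.91 FPKM and Adipoq at 0.46, against 0.11 and 0.04 with CCl4 alone. Of 8 hepatocyte markers, 6 had log2 ratios below 0 in CCl4 over corn oil, with a median of −0.30, and Tat was lower, at −1.09. Their summed FPKM was 58923 in CCl4 and 51608 in corn oil, mostly from Alb, at 36235 and 27512. The part of the other cells in the Cyp4a ratios was not tested.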

How the data were processed

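The authors deposited expected counts and FPKM for each gene of a library. The expected count is the authors' RSEM estimate of a gene's reads, not normalized, and the deposited FPKM divides it by transcript length and library reads. HISAT, Bowtie2, RSEM and mm9 are named in the submitters' processing notes, without versions. The reference used here is GRCm38, so no coordinates are printed.

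Expected counts were rounded and scaled by TMM factors (edgeR 4.0.16, R 4.3.3) within a model, or all 6 for corn oil over SD. log2 ratios used a prior count of 2, a 2-fold threshold and Clopper-Pearson intervals (SciPy 1.17.1). Differences between members were read from exact conditional odds ratios. Background genes had at least 10 counts in 1 of the 2 libraries. Levels of different genes were compared in FPKM. Coding sequences were aligned with Biopython 1.88. Tables and plots used Python 3.11.15, numpy 2.4.6, pandas 2.3.3 and matplotlib 3.10.9.

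The calculation was tested on simulated counts of 13046 genes for HFD over SD, which held counting error and no spread between mice. There it called 99.0% of 4-fold changes and 0.942% of unchanged genes. The latter share is therefore not a rate of false calls between livers of different mice. The genes named are the 6 members, the genes of the lists and the 5 nearest profiles to each of 2 members. The members and lists were chosen with earlier results of these data known. Alternatives were other scalings (total counts, DESeq2 1.42.0, Actb), prior count, FPKM, thresholds, filters and the authors' pooled CCl4 column. The authors also deposited 4 comparison tables with log2 ratios and p-values, which were not used, and 7 expression columns of these tables were not used here. A promoter was matched in RefSeq for 1 member, and none is shown.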

Additional observations from a re-analysis of the deposited data

Results flagged for a closer look

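The JT003 ratios of 2 members had opposite signs in the 2 models, each with an interval that leaves out 0. The difference between the models was not tested, since each model has 1 library per condition. Cyp4a31 had a log2 ratio of 1.69 in HFD plus JT003 over HFD and −0.55 in CCl4 plus JT003 over CCl4. In both cases the value with JT003 lay between the injured library and its control. Over the remaining CCl4 counts the ratio of Cyp4a31 was −0.16. Cyp4a12a had a log2 ratio of −1.01 in HFD plus JT003 over HFD and 1.03 in CCl4 plus JT003 over CCl4. Over the remaining CCl4 counts it was 0.85, so both genes kept their signs there.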

How the results depend on the processing

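Of 324 member ratios recomputed under the alternatives, 318 kept their sign and 307 their side of the 2-fold threshold, and none that was past 2-fold changed sign. The 6 that changed sign were 5 of Cyp4a32 in CCl4 plus JT003 over CCl4 and 1 of Cyp4a12b in corn oil over SD. The number of members past 2-fold stayed within 1.5 times for HFD over SD, HFD plus JT003 over HFD, HFD plus JT003 over SD and CCl4 over corn oil. For CCl4 plus JT003 over CCl4 it was 2, but 0 at a log2 threshold of 1.5 and 1 with the authors' pooled CCl4 counts. At a threshold of 0.58 it was 5 instead of 3 for CCl4 plus JT003 over corn oil and 2 instead of 0 for corn oil over SD, since a looser threshold takes in more genes. The count of all genes past 2-fold moved most with the FPKM scale, threshold and filter. For HFD over SD it was 1345, and 543 on log2(FPKM + 1), 547 at a threshold of 1.5, 3199 at 0.58 and 695 with at least 100 counts. Scaling by total counts shifted the median of all genes to 0.13 in HFD over SD and HFD plus JT003 over SD, from 0.01 to 0.24 in CCl4 over corn oil and from 0.02 to 0.32 in CCl4 plus JT003 over corn oil. In CCl4 over corn oil 1192 genes were higher and 668 lower, against 1652 and 447 by total counts and 800 and 1253 by Actb. In CCl4 plus JT003 over CCl4 the split was 639 and 585, against 1578 and 342 by Actb, and on HFD 316 and 317 against 753 and 169. No paired analysis was possible because each condition has 1 library. Intervals cover counting error only, and no spread between mice could be estimated.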
